A study of Mus musculus with 12 samples.

Results

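Genes of sebaceous gland lipid production, 10 in all, were followed in mouse back skin that was treated with imiquimod (IMQ) or left as control. They were taken by name: Scd1, Scd3, Elovl3, Awat1, Awat2, Dgat2l6, Soat1, Far2, Fa2h and Mc5r, 10 of the 56923 genes in the count table, and all 10 were among the 18529 genes with enough reads to test. IMQ activates Toll-like receptor 7, and repeated application to mouse skin is a widely used model of psoriasis. Skin came from 12 female C57BL/6 mice aged 8 to 10 weeks, 3 in each of 4 groups. Wild-type (WT) mice and mice labelled Lcn2-/- were each divided into a control group and a group given 5% IMQ cream daily on the shaved back, and skin was taken after 6 days. According to the study's methods the controls received vehicle cream, whereas the sample labels give their treatment as none. The methods describe animals deficient in Lcn2 (lipocalin 2) and their WT littermates, although the sample labels write of a knockdown. Whole skin was sequenced, so every value is an average over all cells of the piece, and fewer cells of a type cannot be told apart from less RNA per cell.

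Sebaceous glands open into the hair canal, and their cells (sebocytes) fill with lipid and burst to release sebum. Mouse sebum is rich in wax esters, wax diesters, cholesteryl esters and triglycerides. Fatty acids are lengthened by elongases and given a double bond by stearoyl-CoA desaturases, partly reduced to fatty alcohols by reductases such as Far2, and joined to alcohols by acyltransferases of the Awat and Dgat2 family. Soat1 esterifies cholesterol, Fa2h hydroxylates fatty acids, and Mc5r is a melanocortin receptor through which exocrine glands are stimulated to secrete.

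Scd3 and Awat2 fell most after IMQ in both genotype labels, and the sequence before their start sites is shown so that the regulatory region of these genes can be seen. Dgat2l6 is shown with them as the neighbour of Awat2 on the X chromosome that also passed the test in both. The RefSeq promoter table (GRCm38.p6) was used for 6 of the 10 members, with 2 start sites for Awat2. Each run below is the 250 bases before a start site, read 5′ to 3′ on the gene's strand, and capitals mark CCAAT on either strand (ATTGG is its reverse complement).
Scd3, chr19:44203038-44203287, plus strand: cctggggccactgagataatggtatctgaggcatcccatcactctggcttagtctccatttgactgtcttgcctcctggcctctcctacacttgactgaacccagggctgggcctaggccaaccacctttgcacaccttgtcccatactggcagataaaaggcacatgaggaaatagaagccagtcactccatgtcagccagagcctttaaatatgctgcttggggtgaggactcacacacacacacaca
Awat2, outer start, chrX:100442718-100442967, minus strand: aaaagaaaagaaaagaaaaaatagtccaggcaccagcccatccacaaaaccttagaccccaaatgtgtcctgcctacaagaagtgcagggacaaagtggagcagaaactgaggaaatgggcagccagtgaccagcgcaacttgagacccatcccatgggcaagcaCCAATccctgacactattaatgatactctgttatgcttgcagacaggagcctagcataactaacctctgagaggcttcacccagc
Awat2, inner start, chrX:100412588-100412837, minus strand: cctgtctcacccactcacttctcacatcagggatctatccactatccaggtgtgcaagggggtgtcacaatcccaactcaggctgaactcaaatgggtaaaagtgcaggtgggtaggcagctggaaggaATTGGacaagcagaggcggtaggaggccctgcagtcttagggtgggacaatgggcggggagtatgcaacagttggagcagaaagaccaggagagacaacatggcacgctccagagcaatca
Dgat2l6, chrX:100524588-100524837, plus strand: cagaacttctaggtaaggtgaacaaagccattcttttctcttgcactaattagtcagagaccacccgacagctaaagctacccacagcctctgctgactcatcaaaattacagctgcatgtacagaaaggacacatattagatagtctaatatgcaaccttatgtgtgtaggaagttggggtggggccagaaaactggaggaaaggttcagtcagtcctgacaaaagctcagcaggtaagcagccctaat

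The same windows were searched on both strands for TATAAA (the core of a TATA box), CCAAT (the CCAAT box), AGGTCA (a nuclear receptor half-site), CACGTG (an E-box) and TCACNCCAC (a form of the sterol regulatory element). Only CCAAT was found in the runs shown, once before each start of Awat2, 85 to 81 and 121 to 117 bases upstream. CCAAT is common, with a match in 33.8% of the 32851 promoters of the table over the same 250 bases. The other shares were 12.4% for TATAAA, 14% for AGGTCA, 6.02% for CACGTG and 1.05% for TCACNCCAC.

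The genes lie at several places in GRCm38 (GENCODE M21). The desaturase genes Scd3 (chr19:44203269-44244016) and Scd1 (chr19:44394455-44407879) sit in the Scd cluster of chromosome 19, and Elovl3 (chr19:46131897-46135694) lies on the same chromosome. Awat2 (chrX:100402221-100442717), Dgat2l6 (chrX:100524838-100546144) and Awat1 (chrX:100572251-100578205) stand side by side on the X chromosome. Soat1 is on chromosome 1, Far2 on chromosome 6, Fa2h on chromosome 8 and Mc5r on chromosome 18. The Scd genes are paralogs, so a small part of their reads could have been assigned to a sister gene. On the opposite strand Pitx3 overlaps exons of Elovl3 (190 counts over the 12 mice) and Ergic2 overlaps Far2 (10684 counts), and whether the counting used the strand is not given in the sources used here.

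Between 16448226 and 28592110 reads were counted on genes per mouse, which puts a floor of 3 counts at 0.0985 to 0.202 CPM (a gene's counts scaled to a common normalized library total). Lcn2 reads were not absent under the label Lcn2-/-. Lcn2 had 136, 201 and 86 counts in the WT controls and 320, 173 and 357 in the controls labelled Lcn2-/-. It had 1010, 2723 and 1572 counts in WT IMQ and 561, 511 and 830 in IMQ labelled Lcn2-/-. After IMQ it was 2.81-fold lower under the label, which did not pass the test (log2 difference −1.49 ± 0.40, edgeR adjusted p = 0.0525). The control difference was 0.87 ± 0.41 (edgeR adjusted p = 0.794). Because of the reads under that label, the genotype is given only as a label. Retina markers stayed at or below 1.45 CPM in every mouse, with Crx and Nrl at 0, although the extraction text of the labels mentions retinas. Hair shaft and sheath markers summed to 32.9 CPM in WT control replicate 2 and 266.9 CPM in control replicate 1 labelled Lcn2-/-, against 2101 to 12195 CPM in the other 4 controls. WT IMQ replicate 2 had the highest level of every member in its group, and results that rest on it are given below with and without it.

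In WT skin 9 of the 10 sebaceous lipid genes fell after IMQ, and none rose. Scd3 dropped to 1.25% of its control mean and Awat2 to 3.51%, followed by Awat1 (12.7%), Dgat2l6 (14.7%), Far2 (18.2%), Fa2h (21.1%), Mc5r (24.6%), Scd1 (36.8%) and Soat1 (39.5%). Elovl3, at 88.8% of the control mean, did not pass the test. A gene was called when edgeR's quasi-likelihood test gave a Benjamini-Hochberg adjusted p (over the whole set of tested genes) under 0.05, and 14.3% of that set was called lower and 14.2% higher in this comparison. The median log2 fold change was −2.35 over the 10 genes and −0.02 over all genes. The count of 9 fell to 3 without WT IMQ replicate 1, to 5 without WT control replicate 3 and to 5 when only the 6 WT mice were fitted (Awat1, Mc5r, Far2 and Fa2h lost, edgeR adjusted p between 0.0536 and 0.113). It was 3 with no filter on low counts, where Scd1, Awat1, Dgat2l6, Mc5r, Far2 and Fa2h were lost (edgeR adjusted p between 0.0509 and 0.154), and rose to 10 without WT IMQ replicate 2, where 14.8% of all genes were called lower. That mouse had the highest level of every member in its group, so leaving it out lowers each WT IMQ mean. The count was 8 with DESeq2. Scd3, Awat2 and Soat1 stayed called whichever mouse was left out. The share of all genes called is not given here for the other alternative fits, so their counts are not a result about the members alone.

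In skin labelled Lcn2-/- the fall of Scd3, Awat2, Dgat2l6, Far2 and Mc5r passed the test, 5 of the 10, and no member was called higher. Of all genes tested, 11.2% were called lower and 14.1% higher. The median log2 fold change was −1.97 over the 10 genes and −0.05 over all genes. Scd1, Awat1, Soat1 and Fa2h also had every IMQ mouse below every control mouse, but their adjusted p lay between 0.0517 and 0.161. The count of 5 became 3 without control replicate 3 labelled Lcn2-/- or without any 1 of the 3 IMQ mice labelled Lcn2-/-. It was 3 with no filter on low counts (Mc5r and Far2 lost, edgeR adjusted p = 0.105 and 0.106). When only the 6 mice with that label were fitted it was 9, which added Scd1, Awat1, Soat1 and Fa2h. It was 7 with DESeq2, which added Scd1 and Awat1. The share of all genes called is not given here for these fits, so the counts are not a result about the members alone.

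The groups did not overlap for 9 of the 10 genes in WT skin, where 40.6% of all genes tested did not overlap, and for 9 of the 10 in skin labelled Lcn2-/-, where the share was 45.9%. With 3 mice against 3, an exact permutation test on a single gene cannot give a two-sided p below 0.1. The labels number 3 samples per group without naming litter or cage, and the p-values measure only the spread between these samples.

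**Figure D1:**
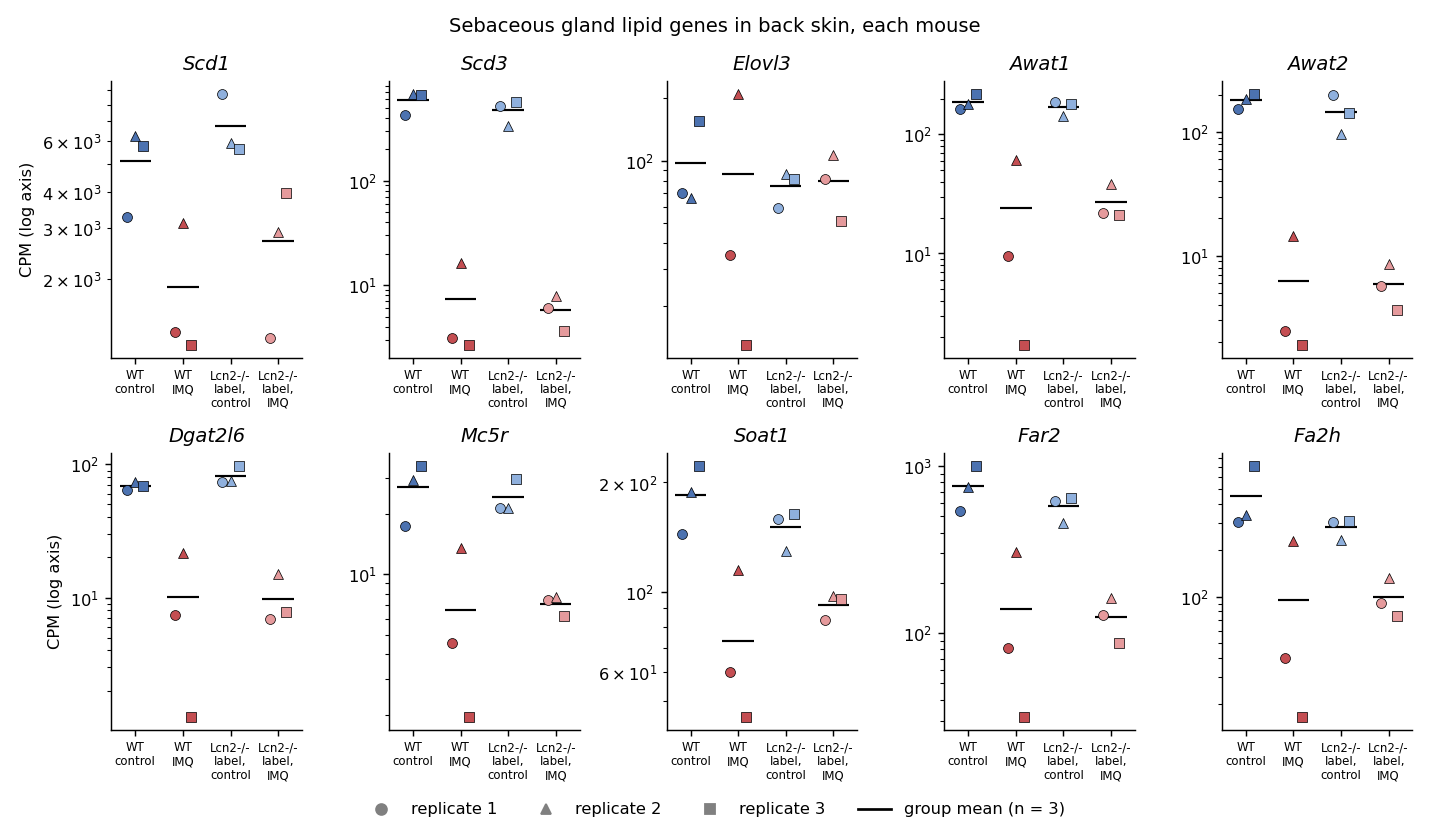
Level (CPM, log axis) of the 10 genes in each of the 12 mice, with symbols for the replicate and bars for the group mean (n = 3). Scd3 and Awat2 show the widest gap between control and IMQ mice, Elovl3 overlaps between them, and the triangle of WT IMQ replicate 2 is the highest of its group in all 10 panels.

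**Figure D2:**
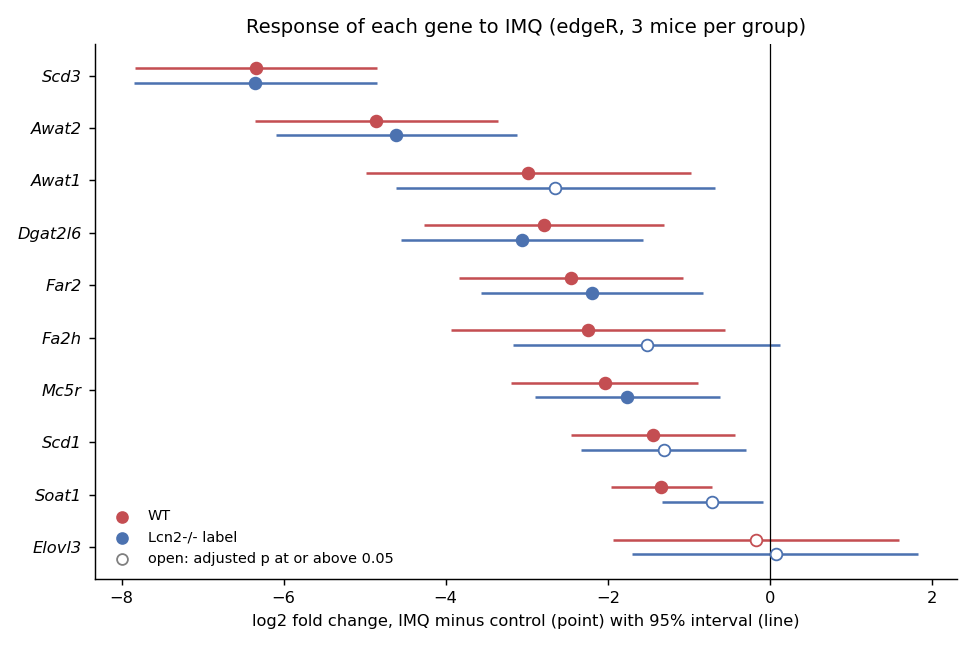
The log2 fold change of each gene after IMQ (edgeR, points) with its 95% interval (lines), in WT skin and in skin labelled Lcn2-/-, 3 mice per group. Filled points have an adjusted p under 0.05, which are 9 genes in WT skin and 5 in skin labelled Lcn2-/-.

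The desaturases place the double bond of oleate and palmitoleate, and Scd1 and Scd3 are the forms known from sebaceous glands. Scd3 stood at 429.2, 681.1 and 665.4 CPM in the WT controls and at 3.09, 16.4 and 2.66 CPM after IMQ. In mice labelled Lcn2-/- it was at 519.9, 333.8 and 568.6 CPM in the controls and at 6.04, 7.78 and 3.6 CPM after IMQ. Even the highest IMQ mouse was far below the lowest control. Scd3 was 81.3-fold lower in WT IMQ skin (95% interval 28.8 to 229.6, log2 fold change −6.34 ± 0.68 SE, edgeR adjusted p = 7e-05) and 81.5-fold lower in IMQ skin labelled Lcn2-/- (28.8 to 231.0, −6.35 ± 0.69, edgeR adjusted p = 0.000139).

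Scd1, the most abundant member, was at 3278, 6243 and 5771 CPM in the WT controls and at 1310.1, 3129 and 1184 CPM after IMQ. The mice labelled Lcn2-/- had 8730.4, 5887 and 5636 CPM without IMQ and 1249, 2918 and 3979.8 CPM with it. The IMQ mice were below the controls in both genotype labels, although WT IMQ replicate 2 came within a small margin of WT control replicate 1. The fall of 2.72-fold in WT skin passed the test (log2 fold change −1.44 ± 0.46, edgeR adjusted p = 0.0371), and the difference of 2.49-fold in skin labelled Lcn2-/- did not (−1.31 ± 0.46, edgeR adjusted p = 0.0573). DESeq2 called the difference under that label (DESeq2 adjusted p = 0.0145). The WT call was lost without WT control replicate 2 or 3 or WT IMQ replicate 1 or 3, with edgeR adjusted p between 0.0871 and 0.141.

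The ratio of Scd3 to Scd1 shows how far the paralogs parted within the same mice. On the scale of CPM per kilobase of exon, Scd3 was 18%, 15% and 15.9% of Scd1 in the WT controls and 8.20%, 7.81% and 13.9% in the controls labelled Lcn2-/-. After IMQ it was 0.325%, 0.722% and 0.310% in WT skin and 0.667%, 0.367% and 0.125% in skin labelled Lcn2-/-. No IMQ mouse came near a control, and the log2 ratio was lower by −5.11 on average in the 6 IMQ mice than in the 6 controls (exact permutation test within genotype label, two-sided p = 0.005, the smallest that 400 relabelings can give, adjusted p = 0.01 over 2 ratios). This pair and the Awat pair below were chosen after their values were seen, and the p-values of both, also when adjusted, do not account for that choice. Of the other paralogs, Scd2 averaged 277.8 ± 107.6 CPM (SD, n = 3) in WT controls and 295.1 ± 13.6 CPM in WT IMQ skin, and Scd4 averaged 2.77 ± 0.592 and 0.395 ± 0.0934 CPM (log2 fold change −2.81 ± 0.54, edgeR adjusted p = 0.00289). Scd4 had only 64, 49 and 61 counts in the WT controls and 7, 7 and 6 after IMQ. The part in them of reads from a more abundant sister gene was not tested.

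**Figure D3:**
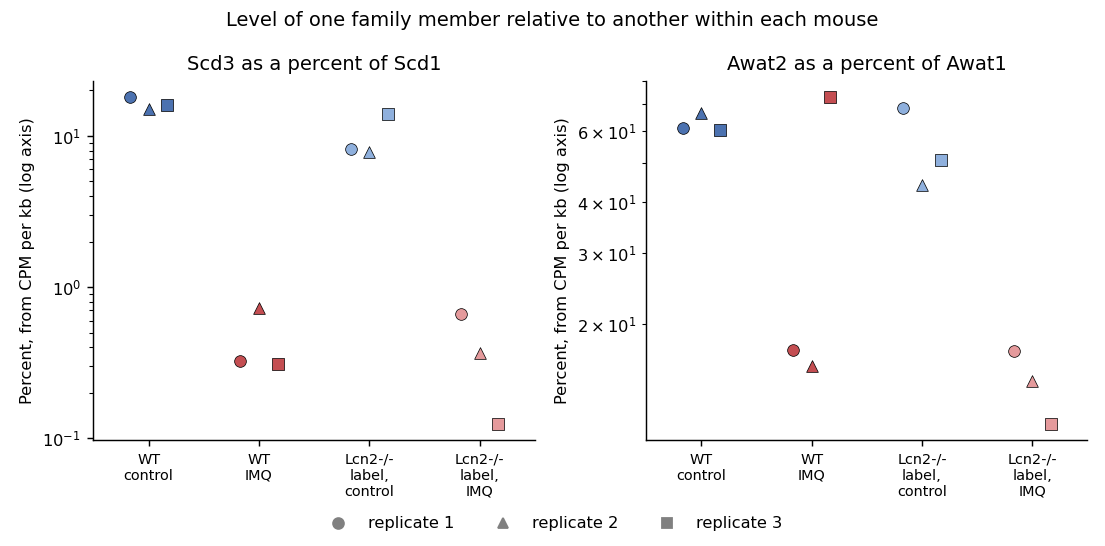
Scd3 as a percent of Scd1, and Awat2 as a percent of Awat1, from CPM per kilobase of exon in each of the 12 mice (log axes, symbols for the replicate). Scd3 lay at 7.81% to 18% of Scd1 in the controls and 0.125% to 0.722% in IMQ mice. Awat2 lay at 11.3% to 17.2% of Awat1 in 5 IMQ mice. In WT IMQ replicate 3 it was at 72.9%, above the controls (44.3% to 68.6%), on only 39 counts of Awat2 and 35 of Awat1.

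Elovl3, an elongase that makes very long saturated and monounsaturated fatty acids, was the only member that passed the test in neither comparison. It was at 69.6, 66.2 and 154.8 CPM in the WT controls and at 35.1, 210.1 and 12.9 CPM after IMQ. The corresponding values were 59.2, 86.4 and 81.6 CPM and 81.1, 106.1 and 50.9 CPM in mice labelled Lcn2-/-. The groups overlapped in both, and WT IMQ replicate 2 exceeded every WT control. The log2 fold change was −0.17 in WT skin (95% interval −1.94 to 1.59, edgeR adjusted p = 0.897) and 0.07 in skin labelled Lcn2-/- (−1.70 to 1.83, edgeR adjusted p = 0.961), intervals wide enough to hold the falls of Scd1 and Soat1. Without WT IMQ replicate 2 Elovl3 was lower in WT IMQ skin too, by −2.02 on the log2 scale (edgeR adjusted p = 0.0162). That mouse was the highest of its group, so leaving it out could only lower the WT IMQ mean.

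The acyl-CoA wax alcohol acyltransferases Awat1 and Awat2 join fatty alcohols to fatty acids to form wax esters. Awat2 was at 151.6, 183.2 and 203.7 CPM in the WT controls and at 2.48, 14.5 and 1.89 CPM after IMQ, and at 197.7, 95.9 and 141.2 CPM against 5.68, 8.48 and 3.66 CPM in mice labelled Lcn2-/-. The control and IMQ mice were far apart. Awat2 fell 29.1-fold in WT skin (95% interval 10.3 to 82.4, log2 fold change −4.86 ± 0.68, edgeR adjusted p = 0.000474) and 24.4-fold in skin labelled Lcn2-/- (8.71 to 68.2, −4.61 ± 0.68, edgeR adjusted p = 0.000981).

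Awat1 was at 162.1, 180.2 and 220.0 CPM in the WT controls and at 9.45, 60.6 and 1.70 CPM after IMQ. In mice labelled Lcn2-/- the levels were 188.3, 141.4 and 181.1 CPM in the controls and 21.7, 38.6 and 21.2 CPM after IMQ. The controls lay close together, while the 3 WT IMQ mice were spread widely. The fall was 7.90-fold in WT skin (95% interval 1.98 to 31.6, log2 fold change −2.98 ± 0.90, edgeR adjusted p = 0.0318). It was 6.27-fold in skin labelled Lcn2-/- (1.60 to 24.5), which did not pass the test (−2.65 ± 0.88, edgeR adjusted p = 0.0517). DESeq2 called the fall under that label (DESeq2 adjusted p = 0.0212). The WT call was lost without any 1 of the WT controls or WT IMQ replicate 1, with edgeR adjusted p between 0.0632 and 0.114.

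Per kilobase of exon, Awat2 was 61.1%, 66.5% and 60.5% of Awat1 in the WT controls and 68.6%, 44.3% and 51.0% in the controls labelled Lcn2-/-. It was 17.2%, 15.7% and 72.9% in WT IMQ mice and 17.1%, 14.4% and 11.3% in IMQ mice labelled Lcn2-/-. Of the 6 IMQ mice, 5 were below all controls, and WT IMQ replicate 3 was above them. In that mouse the ratio rests on only 39 counts of Awat2 and 35 of Awat1. The log2 ratio differed by −1.58 on average between the 6 IMQ mice and the 6 controls (exact permutation test within genotype label, two-sided p = 0.02, adjusted p = 0.02 over 2 ratios).

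Dgat2l6, an acyltransferase of the same family, varied least among the WT controls for its level, with 63.8, 73.6 and 68.3 CPM. After IMQ it was at 7.39, 21.5 and 1.26 CPM. In mice labelled Lcn2-/- it was at 73.8, 74.6 and 97.9 CPM in the controls and 6.84, 14.9 and 7.74 CPM after IMQ. Every IMQ mouse was below every control. The fall was 6.92-fold in WT skin (log2 fold change −2.79 ± 0.67, edgeR adjusted p = 0.0105) and 8.34-fold in skin labelled Lcn2-/- (−3.06 ± 0.68, edgeR adjusted p = 0.00825). Without WT IMQ replicate 1 the WT value was −2.62 (edgeR adjusted p = 0.0553).

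Far2, the reductase that supplies fatty alcohols, was at 536.9, 749.5 and 1004.8 CPM in the WT controls and at 81.4, 304.4 and 31.4 CPM after IMQ. The mice labelled Lcn2-/- had 617.5, 458.6 and 644.4 CPM in the controls and 127.9, 162.4 and 87.0 CPM after IMQ. The groups did not overlap. Far2 fell 5.50-fold in WT skin (log2 fold change −2.46 ± 0.63, edgeR adjusted p = 0.0137) and 4.56-fold in skin labelled Lcn2-/- (−2.19 ± 0.63, edgeR adjusted p = 0.0257). The WT call was lost without WT control replicate 3 or WT IMQ replicate 1 (edgeR adjusted p 0.0512 and 0.0689). The other call was lost without control replicate 1 or 3 or any 1 of the IMQ mice labelled Lcn2-/- (edgeR adjusted p between 0.0534 and 0.103).

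Fa2h, the fatty acid 2-hydroxylase, was at 305.2, 337.3 and 710.8 CPM in the WT controls and at 40.0, 228.7 and 16.4 CPM after IMQ. In mice labelled Lcn2-/- it was at 305.4, 233.3 and 311.1 CPM in the controls and 91.0, 131.5 and 74.5 CPM after IMQ. The WT groups were each widely spread without overlapping. Fa2h fell 4.75-fold in WT skin (95% interval 1.48 to 15.3, log2 fold change −2.25 ± 0.77), only just inside the threshold (edgeR adjusted p = 0.0486), and that call was lost without any 1 of the 6 WT mice except IMQ replicate 2 (edgeR adjusted p between 0.0712 and 0.164). The difference of 2.86-fold in skin labelled Lcn2-/- did not pass the test (−1.52 ± 0.75, edgeR adjusted p = 0.161).

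Soat1, the sterol O-acyltransferase that makes cholesteryl esters, was at 144.5, 188.3 and 222.5 CPM in the WT controls and at 59.9, 114.6 and 45.1 CPM after IMQ. It was at 158.4, 129.7 and 163.4 CPM in the controls labelled Lcn2-/- and at 83.6, 97.3 and 95.2 CPM after IMQ. The gap between control and IMQ mice was small beside that of Scd3 but present in both genotype labels. Soat1 fell 2.53-fold in WT skin (95% interval 1.64 to 3.9, log2 fold change −1.34 ± 0.29, edgeR adjusted p = 0.00525). The difference was 1.64-fold in skin labelled Lcn2-/- (1.07 to 2.51, −0.71 ± 0.28, edgeR adjusted p = 0.0864).

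Mc5r, the receptor among the members, had the lowest level per length of the 10 in the controls. It was at 17.3, 29.3 and 34.6 CPM in the WT controls and at 4.54, 13.5 and 1.94 CPM after IMQ. In mice labelled Lcn2-/- it was at 21.4, 21.2 and 29.6 CPM in the controls and 7.39, 7.72 and 6.18 CPM after IMQ. No IMQ mouse reached a control. The fall was 4.11-fold in WT skin (log2 fold change −2.04 ± 0.53, edgeR adjusted p = 0.0139) and 3.39-fold in skin labelled Lcn2-/- (−1.76 ± 0.52, edgeR adjusted p = 0.0293). The WT call was lost without WT IMQ replicate 1 (edgeR adjusted p = 0.0678). The other was lost without control replicate 3 or any 1 of the IMQ mice labelled Lcn2-/- (edgeR adjusted p between 0.0766 and 0.103).

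The order of the genes by level changed with IMQ. On the scale of CPM per kilobase of exon, Scd1 led the WT controls with 1042 ± 325.7 (SD, n = 3). Scd3 came next with 166.6 ± 39.7, followed by Fa2h (150.0 ± 75.0), Awat1 (134.9 ± 21.3), Far2 (104.4 ± 32.0), Awat2 (84.4 ± 12.4), Elovl3 (49.0 ± 25.4), Soat1 (18.9 ± 3.99), Dgat2l6 (14.5 ± 1.03) and Mc5r (6.93 ± 2.27). Scd1 stood clear of Scd3, Elovl3 of Soat1 and Dgat2l6 of Mc5r, while the other neighbours in this order overlapped between mice. In WT IMQ skin Scd1 again led with 383.2 ± 222.5, Elovl3 had moved up next to it with 43.6 ± 54.7, and Scd3 had dropped to 2.08 ± 2.20, next to Dgat2l6 (2.12 ± 2.19) and Mc5r (1.71 ± 1.56). Below Scd1, all neighbours in the WT IMQ order overlapped between mice. In IMQ skin labelled Lcn2-/- Scd3 had the lowest mean, 1.63 ± 0.591 per kilobase, and overlapped between mice with Mc5r, Dgat2l6 and Awat2.

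None of the 10 genes was called between the genotype labels with all 12 mice in the fit. After IMQ, the log2 differences between mice labelled Lcn2-/- and WT mice lay between −0.32 (Scd3) and 0.53 (Scd1), with edgeR adjusted p of at least 0.471, where 2.19% of all genes were called higher and 2.6% lower. No member had IMQ groups that did not overlap between the labels (33.3% of all genes did) or an unadjusted p under 0.05 (27.0% of all genes had one), and DESeq2 called none. Among the controls they lay between −0.67 (Fa2h) and 0.41 (Scd1), with edgeR adjusted p of at least 0.955, where 0.0054% of all genes were called in each direction. No member had an unadjusted p under 0.05 there (6.6% of all genes did), and DESeq2 called none. Dgat2l6 was the only member whose control groups did not overlap, with 73.8 to 97.9 CPM under the label Lcn2-/- and 63.8 to 73.6 CPM in WT, as 9.37% of all genes did. The 2 IMQ responses were also compared directly, and the differences between them lay between −0.27 (Dgat2l6) and 0.73 (Fa2h) on the log2 scale, with edgeR adjusted p of at least 0.347. In that test 1.37% of all genes were called higher and 0.783% lower, no member had an unadjusted p under 0.05 (24.1% of all genes did) and DESeq2 called none.

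The comparisons with WT IMQ skin rest in part on WT IMQ replicate 2. It was the highest of the 3 WT IMQ mice in 10 of 10 genes, as it was in 41.5% of all genes tested, and it exceeded the next mouse by 1.91-fold (Soat1) to 6.41-fold (Awat1). Its sebocyte markers (14 genes) summed to 2067 CPM against 1066 and 879.2 CPM in the other WT IMQ mice, its adipocyte markers (15 genes) to 9079 against 4335 and 3916 CPM, and its leukocyte markers (11 genes) to 1776 against 1076 and 939.1 CPM. Its epidermal keratinocyte markers (15 genes) were the lowest, 32673 against 42515 and 39855 CPM. The part of these levels in the members' values was not tested.

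Without this mouse, 4 of the 10 genes were called higher in IMQ skin labelled Lcn2-/- than in WT IMQ skin, with 6.69% of all genes called higher and 7.47% lower. They were Awat1 (log2 difference 2.32, edgeR adjusted p = 0.0251), Awat2 (1.45, edgeR adjusted p = 0.0441), Fa2h (1.82, edgeR adjusted p = 0.0312) and Soat1 (0.81, edgeR adjusted p = 0.0224). The other 6 lay between 1.02 (Scd3) and 1.73 (Elovl3), with edgeR adjusted p between 0.0502 and 0.164. The IMQ response of Fa2h and Soat1 was then weaker under the label Lcn2-/- than in WT skin, by 2.49 and 1.11 on the log2 scale (edgeR adjusted p = 0.0331 and 0.0265), where 5.27% of all genes were called higher and 4.74% lower. These fits leave 2 WT IMQ mice. The mouse left out was singled out because it had the highest level of every member in its group. Leaving it out therefore lowers the WT IMQ mean of each member. The direction of these differences follows in part from that choice, and the p-values do not account for it.

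Further genes known from the sebaceous gland were counted in the same way. Counts for this and the following lists stand beside the shares of all genes called after IMQ. These were 14.3% lower and 14.2% higher in WT skin, and 11.2% lower and 14.1% higher under the label Lcn2-/-. Of 14 sebocyte markers 8 were called lower and 1 higher in WT IMQ skin (median log2 fold change −0.93), and 6 were called lower and none higher in skin labelled Lcn2-/- (−0.90). In WT skin the lipid droplet protein gene Plin2 fell from 387.7 ± 62.4 to 165.9 ± 59.8 CPM (SD, n = 3, edgeR adjusted p = 0.0028) and Lrig1, a marker of upper follicle stem cells, from 146.7 ± 13.6 to 82.5 ± 7.45 CPM (edgeR adjusted p = 0.00211). Prdm1, the gene of Blimp1, rose from 28.4 ± 2.20 to 63.2 ± 11.1 CPM (edgeR adjusted p = 0.000782). Under the label Lcn2-/- Lrig1 was also called lower (log2 fold change −0.85 ± 0.15, edgeR adjusted p = 0.00254). Plin2 (−0.43 ± 0.23, edgeR adjusted p = 0.199) and Prdm1 (0.38 ± 0.18, edgeR adjusted p = 0.143) were not called there. Blimp1 is known from sebaceous glands and from differentiating keratinocytes.

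Of 26 further genes of fatty acid synthesis, 16 were called lower and 1 higher in WT IMQ skin (median −0.73), and 10 lower and 1 higher in skin labelled Lcn2-/- (−0.74). Elovl5, an elongase of polyunsaturated fatty acids, fell from 518.7 ± 108.5 to 90.2 ± 34.3 CPM in WT skin (log2 fold change −2.53 ± 0.27, edgeR adjusted p = 5.3e-05). The desaturase gene Fads1 fell from 66.2 ± 7.60 to 34.7 ± 8.94 CPM (edgeR adjusted p = 0.0022). Elovl1, which makes very long saturated chains used in epidermal ceramides, rose from 125.7 ± 9.09 to 282.3 ± 47.7 CPM (edgeR adjusted p = 0.000183). Elovl6, another elongase, was also lower in WT skin (log2 fold change −3.01 ± 0.61, edgeR adjusted p = 0.00399). The elongases named here thus differed in direction in WT skin, with Elovl5 and Elovl6 lower, Elovl1 higher and Elovl3 not called.

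Of 14 tested genes of neutral lipid synthesis, 3 were called lower and 2 higher in each of the 2 IMQ comparisons (median −0.34 in WT skin and −0.19 in skin labelled Lcn2-/-). These counts lay near the shares of all genes called, so they are not a result about this list. In WT skin Gpam, the mitochondrial glycerol-3-phosphate acyltransferase, fell from 204.2 ± 47.9 to 86.5 ± 25.8 CPM (edgeR adjusted p = 0.00239), and the phosphatidate phosphatase gene Lpin2 rose from 29.4 ± 1.83 to 65.3 ± 10.7 CPM (edgeR adjusted p = 0.000671). Of 14 regulators of lipid synthesis, 6 were called lower and 2 higher in WT skin, and 6 lower and 4 higher in skin labelled Lcn2-/-. Insig2 and Insig1, which hold back sterol-dependent transcription, fell in WT skin from 153.7 ± 25.5 to 56.0 ± 10.1 CPM (edgeR adjusted p = 0.000101) and from 116.4 ± 13.3 to 44.7 ± 15.2 CPM (edgeR adjusted p = 0.00135). The nuclear receptor gene Ppard rose from 43.4 ± 6.09 to 155.1 ± 17.9 CPM (edgeR adjusted p = 1.03e-05).

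Around Mc5r, 4 other melanocortin genes had enough reads to test. Mc1r, the melanocortin receptor of pigment cells, fell from 3.38 ± 2.13 to 0.266 ± 0.234 CPM in WT skin (edgeR adjusted p = 0.0134) and from 4.58 ± 3.17 to 0.479 ± 0.320 CPM in skin labelled Lcn2-/- (edgeR adjusted p = 0.0189). Agrp, an antagonist of melanocortin receptors, was called higher in WT skin at levels close to the floor, 0.294 ± 0.125 and 1.45 ± 0.423 CPM (edgeR adjusted p = 0.00502).

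The genes whose course over the 12 mice was most like the mean of the 10 were Pnpla5, Sec14l4, Gm13178 and Elovl6. Likeness was the mean absolute difference of log2 CPM after centring each gene, over genes of at least 1 CPM, and it was 0.16, 0.19, 0.19 and 0.21 for these genes against a median of 1.43 over 15973 genes. Gm5538, Panx3, Gm10640, Hepacam2, 4930449A18Rik and Abhd3 followed with 0.23 to 0.30. Pnpla5 is a lipase of the patatin-like family and went from 61.4, 87.5 and 121.3 CPM in the WT controls to 6.97, 25.1 and 2.32 CPM after IMQ, with the same mouse highest. Elovl6, which elongates palmitate to stearate, went from 1702, 1626.5 and 2910.5 CPM to 150.1, 553.5 and 68.8 CPM.

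Taken singly, the members differed in which gene followed them most closely. Soat1 had Rassf3 at 0.06, Awat1 had the pseudogene Gm12551 at 0.15, Mc5r had Ugt1a1 at 0.23, Far2 had Sec14l4 at 0.23, Fa2h had Acoxl at 0.23, Scd1 had Aldh1a7 at 0.23, Dgat2l6 had Pnpla5 at 0.31, Awat2 had Paqr7 at 0.38, Elovl3 had Gm38910 at 0.40 and Scd3 had Mrgprb11-ps at 0.47. Among the members the closest pairs were Mc5r and Far2 (0.29) and Far2 and Fa2h (0.30), and the most distant were Scd3 and Elovl3 (3.05). All of these rest on the same 12 libraries and the same group differences.

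Markers of other cell types of the skin also differed between the groups. Their counts stand beside the same shares of all genes, 14.3% called lower and 14.2% higher in WT skin, and 11.2% and 14.1% under the label Lcn2-/-. Adipocytes express Scd1 and much of the fatty acid pathway. Adipocyte markers (15 genes, led by Car3, Cfd and Fabp4) summed to 8085 to 12100 CPM in WT controls and 3916 to 9079 CPM after IMQ, with 4 called lower. In mice labelled Lcn2-/- the ranges were 7786.5 to 15344 and 7918 to 10803 CPM, with 1 of the 15 called lower. Brown adipocytes also express Elovl3, and their defining gene Ucp1 was at 0 in all 6 controls and at most 0.242 CPM in any mouse. Of 6 tested brown adipocyte markers, 3 were called lower in WT skin and 1 under the label Lcn2-/-.

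The summed level of epidermal keratinocyte markers (led by Krt14, Krt1 and Krt10) was higher in every IMQ mouse, at 6304 to 9776 CPM in WT controls against 32673 to 42515 CPM after IMQ, and at 6853 to 8681 CPM against 19097 to 31093 CPM under the label Lcn2-/-. Of the 15, 10 and 9 were called higher and 2 were called lower in each comparison (Flg2 and Krt2). Hair shaft and sheath markers (17 genes) summed to 22.0 to 109.1 CPM in WT IMQ skin, a range that holds WT control replicate 2 (32.9 CPM), and to 15.5 to 29.6 CPM in IMQ skin labelled Lcn2-/-, with 5 and 17 called lower. Outer root sheath and follicle stem cell markers (8 genes) summed to 1186 to 1691 CPM in WT controls and 387.3 to 460.9 CPM after IMQ, with 5 called lower in each of the 2 comparisons and 1 (Nfatc1) called higher under the label Lcn2-/-. Skeletal muscle markers (10 genes) had 7 called lower and 1 higher in WT skin and 5 lower and 1 higher under the label Lcn2-/-, endothelial markers (8 genes) 5 and 6 called higher, and fibroblast markers (12 genes) 6 called lower in WT skin and 6 called higher under the label Lcn2-/-. Of 10 tested leukocyte markers, 3 were called higher and 2 lower in WT skin and 7 higher under the label Lcn2-/-. The part of these changes in the members' values was not tested. WT control replicate 2 and control replicate 1 labelled Lcn2-/- had the lowest hair marker sums among the controls. Without them, the number of members called lower was 5 in WT skin and 3 under the label Lcn2-/-. The share of all genes called in that fit is not given here.

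**Figure D4:**
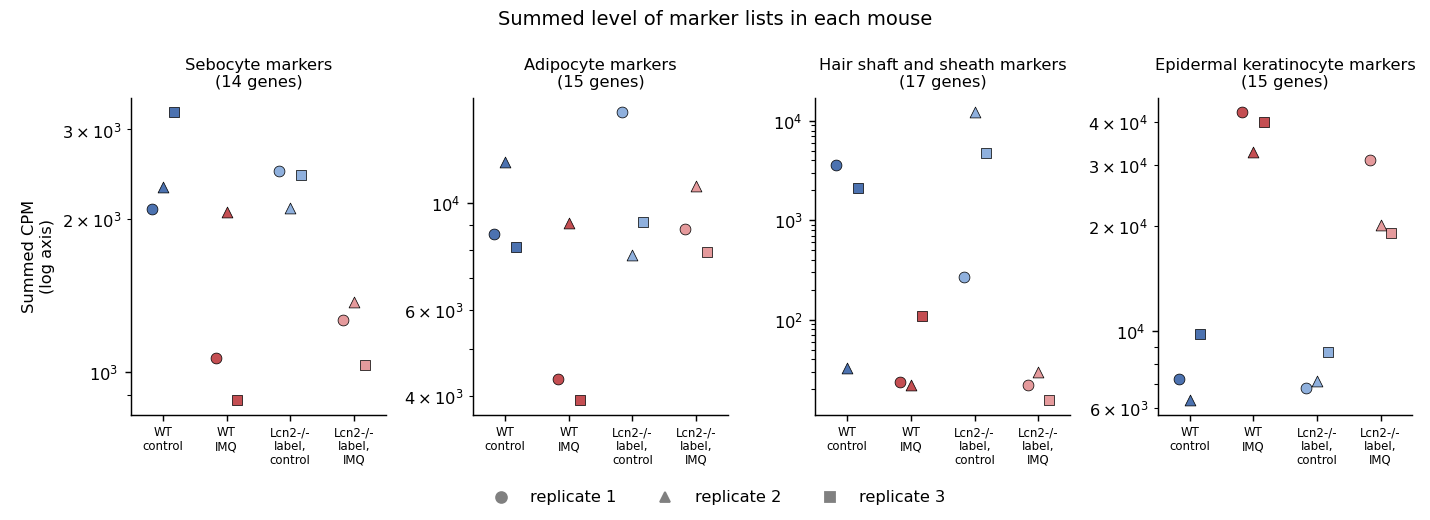
Summed CPM (log axes) of 4 marker lists in each of the 12 mice, with symbols for the replicate. Sebocyte markers were lower in IMQ mice, but WT IMQ replicate 2 (2066.5 CPM) came close to WT control replicate 1 (2088 CPM). Adipocyte sums overlapped between control and IMQ mice labelled Lcn2-/-. Hair markers varied from 32.9 to 12195 CPM among controls, and keratinocyte markers were higher in every IMQ mouse.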

How the data were processed

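The authors deposited raw read counts per Ensembl gene for 12 mouse skin libraries. The deposited values are whole numbers without normalization. The study's methods describe paired-end Illumina sequencing and DESeq2. The submitters' processing notes name HISAT and mm8, and the annotation and counting tool are not given in the sources used here. Names and positions came from GENCODE M21 (GRCm38), which held 52073 of the 56923 identifiers (91.5%), and identifiers without a match held 0.567% of counts. Groups and replicate numbers came from the sample labels.

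Counts were fitted with edgeR 4.0.16 (R 4.3.3, limma 3.58.1): TMM normalization, filterByExpr (minimum count 10, minimum total 15), a robust quasi-likelihood fit of 4 group means over 12 mice, and Benjamini-Hochberg adjustment over all 18529 genes tested. CPM used TMM library sizes. Floors on counts cover counting error only. The intervals on fold changes come from the edgeR fit and include the spread between the mice of a group. Libraries of a group differed by more than sampling noise. The fit was also run on simulated counts in which some genes were raised in WT IMQ only. That simulation held no falls and no outlying mouse, so it does not bear on calls that rest on single mice. Ratios within a mouse were tested by exact permutation within genotype label.

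Alternatives were RLE size factors, DESeq2 1.42.0, no filter, at least 10 counts in every mouse, fits of the compared groups only, a replicate block, thresholds of 2-fold with p or adjusted p under 0.05, and each mouse left out. Leaving out the 2 controls with low hair markers was added after seeing the data. The members and gene lists were chosen with earlier results of these data known. Named genes were the members, Lcn2, up to 3 genes called in each direction per list with the smallest adjusted p, up to 3 most abundant markers per cell type, and the genes most like the members (10 for their mean, 3 for each). A gene so chosen is not reported here. Scd2, Ucp1 and the overlapping genes were named besides as paralog, defining marker or neighbours. Figures used matplotlib 3.10.9 in Python 3.11.15.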

Additional observations from a re-analysis of the deposited data

How the results depend on the processing

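In WT skin the number of members called lower after IMQ (9) was 3 with no filter on low counts, 5 with only the compared groups fitted, and 5 without the 2 controls with low hair markers, an alternative chosen after seeing the data. Leaving out 1 mouse gave 3 to 10. Under the label Lcn2-/- the number (5) was 3 with no filter, 9 with only the compared groups, 3 without the 2 controls, and 3 to 5 with 1 mouse left out. RLE size factors, DESeq2, at least 10 counts in every mouse and the 2-fold thresholds kept both counts within 1.5 times. DESeq2, the tool named by the study, called 8 lower in WT skin and 7 under the label Lcn2-/-. It gave Fa2h no adjusted p in WT skin, and under the label it added Awat1 and Scd1. The distance between the 2 counts thus depended on the method. The cause of these shifts was not tested. With no filter more genes enter the fit and the adjustment, and fits without a mouse have fewer samples. The share of all genes called is given here only for the main fit and the fit without WT IMQ replicate 2. With 1 mouse left out, the members called higher in IMQ labelled Lcn2-/- against WT IMQ were 0 to 4, and those with a higher difference between the responses 0 to 2. The upper counts came from leaving out WT IMQ replicate 2, the highest of its group in every member.

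Directions reversed in members that were not called with all 12 mice in the fit. Elovl3 lay between −2.02 and 0.34 in WT skin and between −0.20 and 0.31 under the label Lcn2-/- with 1 mouse left out, and at −0.09 in the latter without the 2 low-hair controls. Between the IMQ groups, leaving out 1 mouse gave −0.74 to 1.02 for Scd3, −0.63 to 1.73 for Elovl3, −0.37 to 2.32 for Awat1, −0.51 to 1.45 for Awat2, −0.55 to 1.22 for Dgat2l6, −0.34 to 1.15 for Mc5r, −0.62 to 1.16 for Far2 and −0.44 to 1.82 for Fa2h. Dgat2l6 was 0.00 there with RLE size factors, 0.01 with no filter and 0.01 with the compared groups only. Between the controls it gave −0.55 to 0.16 for Elovl3 and −0.41 to 0.05 for Mc5r. For the difference between the responses it gave −0.25 to 0.72 for Scd1, −0.42 to 1.34 for Scd3, −0.27 to 2.09 for Elovl3, −0.23 to 2.45 for Awat1, −0.20 to 1.76 for Awat2, −0.81 to 0.96 for Dgat2l6, −0.17 to 1.32 for Mc5r and −0.21 to 1.58 for Far2, and 0.01 for Scd3 with no filter.

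Replicate numbers do not pair the mice, which are different animals, and the correlation of same-numbered deviations lay between −0.555 and 0.199. With the replicate block 9 members were called lower in WT skin and 5 under the label Lcn2-/-, as without it. Between the IMQ groups the block gave 0.26 for Elovl3, 0.10 for Awat2, 0.16 for Dgat2l6 and 0.08 for Far2, and for the difference between the responses 0.08 for Scd3, none of them called.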
